A study of Mus musculus with 4 samples.

Results

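The 9 genes described here encode core regulators of pluripotency in mouse embryonic stem cells: the transcription factor genes Pou5f1 (whose protein is also called OCT4), Sox2, Nanog, Sall4, Sall1, Zfp42 (whose protein is also called REX1) and Zfp281, and the RNA-binding protein genes L1td1 and Lin28a. They were chosen by name and found through their Ensembl identifiers among the 55401 genes of the deposited table. All 9 passed the filter on low counts, which left 15341 genes to test. The RNA-seq libraries, made by oligo(dT) selection, came from the R1 line in 2 groups of 2 libraries. The first group is Usp28 KO (knockout) cells and the second is control cells of genotype WT. Cells of both groups grew on 0.2% gelatin in N2B27 medium with 1 μM PD0325901 (a MEK inhibitor), 3 μM CHIR99021 (a GSK3 inhibitor) and 10 ng/ml leukaemia inhibitory factor, known as 2i/LIF. USP28 is a deubiquitinase, an enzyme that removes ubiquitin from proteins. The labels give neither the edit made in Usp28 nor whether the knockout is 1 clone. Nothing shows that replicates are separate cultures either, so the p-values rest on a spread between libraries that may be technical.

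OCT4, SOX2 and NANOG bind together at enhancers of embryonic stem cells, their own genes among them, and hold the cells in a state that can give rise to all tissues of the embryo. SALL4 and SALL1 are zinc finger proteins that interact with these factors and with the NuRD chromatin remodelling complex. REX1 marks the naive state that 2i/LIF culture supports, ZFP281 is a zinc finger regulator that represses Nanog and takes part in the exit from that state, and LIN28A binds precursors of the let-7 microRNAs and blocks their processing.

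The promoters of 4 members are printed as examples of windows with and without the DNA words that OCT4 and SOX2 read. The sequences are RefSeq's on GRCm38.p6, 250 bases upstream of the start, 5′ to 3′ on the strand of the gene. Capitals mark the OCT-SOX composite in Nanog, the octamer in Zfp42 and a GC box in Pou5f1; the L1td1 window holds none of the 5 motifs searched and has no capitals.
Nanog, chr6:122707239-122707488, plus strand: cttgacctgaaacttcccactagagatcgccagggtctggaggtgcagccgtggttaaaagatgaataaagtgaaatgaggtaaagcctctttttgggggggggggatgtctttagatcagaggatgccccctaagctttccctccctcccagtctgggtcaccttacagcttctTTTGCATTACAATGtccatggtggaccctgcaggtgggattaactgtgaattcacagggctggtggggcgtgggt
Zfp42, chr8:43307010-43307259, minus strand: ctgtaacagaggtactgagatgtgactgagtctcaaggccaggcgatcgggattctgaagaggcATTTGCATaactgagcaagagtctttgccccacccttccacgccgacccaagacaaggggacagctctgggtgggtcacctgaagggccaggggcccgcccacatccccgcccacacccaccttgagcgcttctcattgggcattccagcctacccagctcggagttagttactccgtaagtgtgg
Pou5f1, chr17:35505782-35506031, plus strand: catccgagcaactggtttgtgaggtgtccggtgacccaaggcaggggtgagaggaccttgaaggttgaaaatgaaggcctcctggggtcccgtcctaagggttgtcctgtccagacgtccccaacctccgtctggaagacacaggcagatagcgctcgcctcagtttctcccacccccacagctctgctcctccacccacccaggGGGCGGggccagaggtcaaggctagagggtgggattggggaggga
L1td1, chr4:98726504-98726753, plus strand: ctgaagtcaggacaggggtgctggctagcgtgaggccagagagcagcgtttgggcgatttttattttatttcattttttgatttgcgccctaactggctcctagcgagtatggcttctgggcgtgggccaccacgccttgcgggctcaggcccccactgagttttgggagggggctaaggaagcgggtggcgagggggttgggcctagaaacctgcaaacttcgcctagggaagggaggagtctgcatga

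Of the 9 members, 8 had entries, with 12 windows between them, and Sall4 had none. The composite, searched like the other motifs on both strands, is the SOX element CATTGT followed by any 1 base and ATGCAAA. It was found in 2 of 32851 windows of all genes (0.00609%), and both are the overlapping windows of Nanog, where it spans positions -75 to -62 from the first start. The octamer, ATGCAAAT, which shares ATGCAAA with the composite, was in 1.6% of all windows and among the members only in that of Zfp42, at positions -186 to -179. The SOX element, CATTGT, which is the first part of the composite, was in 10.7% of all windows and in windows of Lin28a, Nanog and Pou5f1; in Pou5f1 it lies in the window of a second start, which is not printed. The GC box, GGGCGG, was in 32.7% of all windows and in those of Zfp281, Sox2, Zfp42, Sall1 and Pou5f1. The TATA box, TATAAA, was in 12.4% of all windows and in 0 windows of the members. A match is a string of letters and not a measured binding site, and the best known enhancers of Pou5f1 and Sox2 lie outside these windows.

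The libraries labelled Usp28 KO held 17996611 and 18709558 counts, and the control libraries 19533608 and 16595196. The mitochondrial share of counts was 1.92% and 3.33% in Usp28 KO and 2.77% and 5.65% in control, with control replicate 2 the highest, and the part of this in the members' levels was not tested. Each member had between 2165 and 14313 counts in a library, and the 9 together took 0.372% to 0.427% of a library's counts. Usp28 itself (chromosome 9, 48985375 to 49042517) had 3392 and 3319 counts in the libraries labelled Usp28 KO, and 3690 and 3120 in control (log2 fold change -0.11 ± 0.15, SE). Per 1000000 scaled counts this was 181 and 177 in Usp28 KO and 189 and 197 in control. Both Usp28 KO libraries were thus the lower, as for 20.4% of all tested genes. A knockout need not reduce the count of its own transcript, so the label is not tested by it, and directions are given between libraries by their labels. Markers of other cell types were low beside the members, whose summed level was 3582 and 3909 CPM in Usp28 KO and 4267 and 4399 CPM in control (CPM, counts per 1000000 of the library total after scaling by a trimmed mean of log ratios, TMM). The summed level of 10 trophectoderm markers was 209 and 273 CPM in Usp28 KO and 225 and 272 CPM in control, most of it from Tfap2c and Tead4, which embryonic stem cells also express. Of the 6 tested trophectoderm markers, 4 had a log2 fold change above 0 and 2 below. Krt18, with the lowest p of them, had 4.33 and 4.21 CPM in Usp28 KO and 2.35 and 2.59 CPM in control. Its log2 fold change was 0.79 (edgeR adjusted p = 0.369). The summed level of 10 primitive endoderm markers was 61.1 and 58.9 CPM in Usp28 KO and 60.8 and 48.3 CPM in control. For 10 mesoderm markers it was 18.0 and 27.2 CPM in Usp28 KO and 17.9 and 23.9 CPM in control, and for 10 fibroblast markers 5.67 and 8.27 CPM in Usp28 KO and 3.74 and 5.11 CPM in control, with Dcn, Lum, Postn and Twist2 at 0 in every library. Of the 6 tested primitive endoderm markers, 3 were above 0 and 3 below. The 4 tested mesoderm markers and the 2 tested fibroblast markers were all above 0. The fibroblast sums, though low, did not overlap between the groups and were higher in Usp28 KO. The 10 neuroectoderm markers summed to 164 and 140 CPM in Usp28 KO and 146 and 107 CPM in control, and Neurog2 was at 0. Of the 7 that were tested, 3 had a log2 fold change above 0 and 4 below, with a median of -0.0070. Nes, which had the lowest p, had 53.8 and 43.9 CPM in Usp28 KO and 19.1 and 21.7 CPM in control (edgeR adjusted p = 0.0540). Nes was left out of another sum after the values were seen, giving 110 and 95.9 CPM in Usp28 KO and 127 and 85.1 CPM in control. The neuroectoderm sums overlapped between the groups both with and without Nes. The part of other cell types in the members' levels was not tested.

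All 9 members were abundant, in the order Zfp42, Sox2, Nanog, Pou5f1, L1td1, Sall1, Lin28a, Sall4 and Zfp281 by mean level per length. This level is CPM per kb of annotated exon, the scale used here to rank the members. Elsewhere, sums of lists, bounds on abundance and the place of Tdgf1 in its list use CPM, which is not corrected for length. Zfp42 stood at 275 ± 17.8 CPM per kb in Usp28 KO and 345 ± 3.28 in control (SD, n = 2 each), and Zfp281 at 24.0 ± 0.830 in Usp28 KO and 32.9 ± 2.98 in control. Among the 15341 tested genes Zfp42 ranked 110, Sox2 123, Nanog 129, Pou5f1 133 and L1td1 180, while Sall1 ranked 328, Lin28a 984, Sall4 1135 and Zfp281 1898. The top 4 are close: Sox2 was above Nanog in 3 of 4 libraries, Nanog above Pou5f1 in 2 of 4 and Zfp42 above Sox2 in 3 of 4. Zfp42 was above Nanog and Pou5f1 in all 4, and Pou5f1 was above L1td1 in 3. L1td1 was above Sall1, Sall1 above Lin28a and Sall4 above Zfp281 in all 4 libraries, and Lin28a was above Sall4 in 3.

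**Figure D1:**
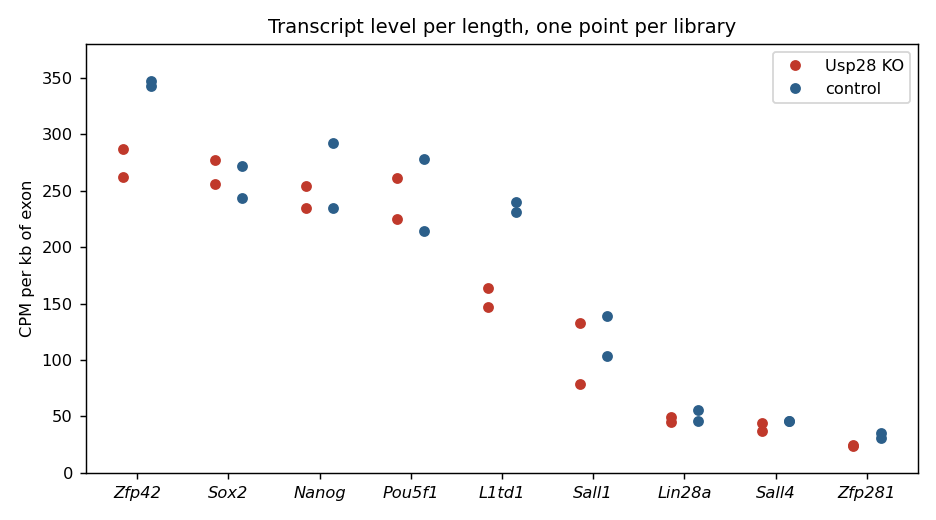
Transcript level per length of the 9 members (vertical axis, CPM per kb of exon), 1 point per library, Usp28 KO left of control for each gene, genes ordered by their mean. Over all libraries, the ranges of Zfp42, Sox2, Nanog and Pou5f1 lie between 214 and 348 CPM per kb and overlap. Within control, Zfp42 lies above the other members, and L1td1 reaches 240. Zfp281 lies between 23.5 and 35.0.

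No member passed the edgeR test between the groups in the main fit, which has no replicate block. A fit with that block, given at the end, called L1td1, Zfp281 and Zfp42. The labels do not say that replicate numbers mark a shared batch. L1td1 and Zfp281 were the members with the lowest p, both lower in the libraries labelled Usp28 KO, while Pou5f1, Sox2 and Nanog differed by no more than 0.11 on the log2 scale in the fit on all 4 libraries. By edgeR's quasi-likelihood test with Benjamini-Hochberg adjustment over all tested genes, 0 of 9 members were called at an adjusted p under 0.05, where 0.00% of all tested genes were called. At an unadjusted p under 0.05 edgeR had 2 of the 9 lower and 0 higher, against 4.34% of all tested genes lower and 6.86% higher. DESeq2 called 1 of 9, L1td1, as lower, against 0.380% of the 13173 genes it adjusted. The log2 fold change was below 0 for 8 of 9 members and for 50.6% of all tested genes. The tally of members was 6 of 9 without control replicate 1, 7 without control replicate 2 or Usp28 KO replicate 2, and 7 with upper-quartile scaling or library totals. The median over the 9 was -0.18, against -0.0040 over all tested genes and -0.070 over the 2417 that, like every member, averaged at least 100 CPM. In 4 members, L1td1, Zfp281, Zfp42 and Sall4, both Usp28 KO libraries lay below both control libraries, which held for 20.4% of all tested genes.

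**Figure D2:**
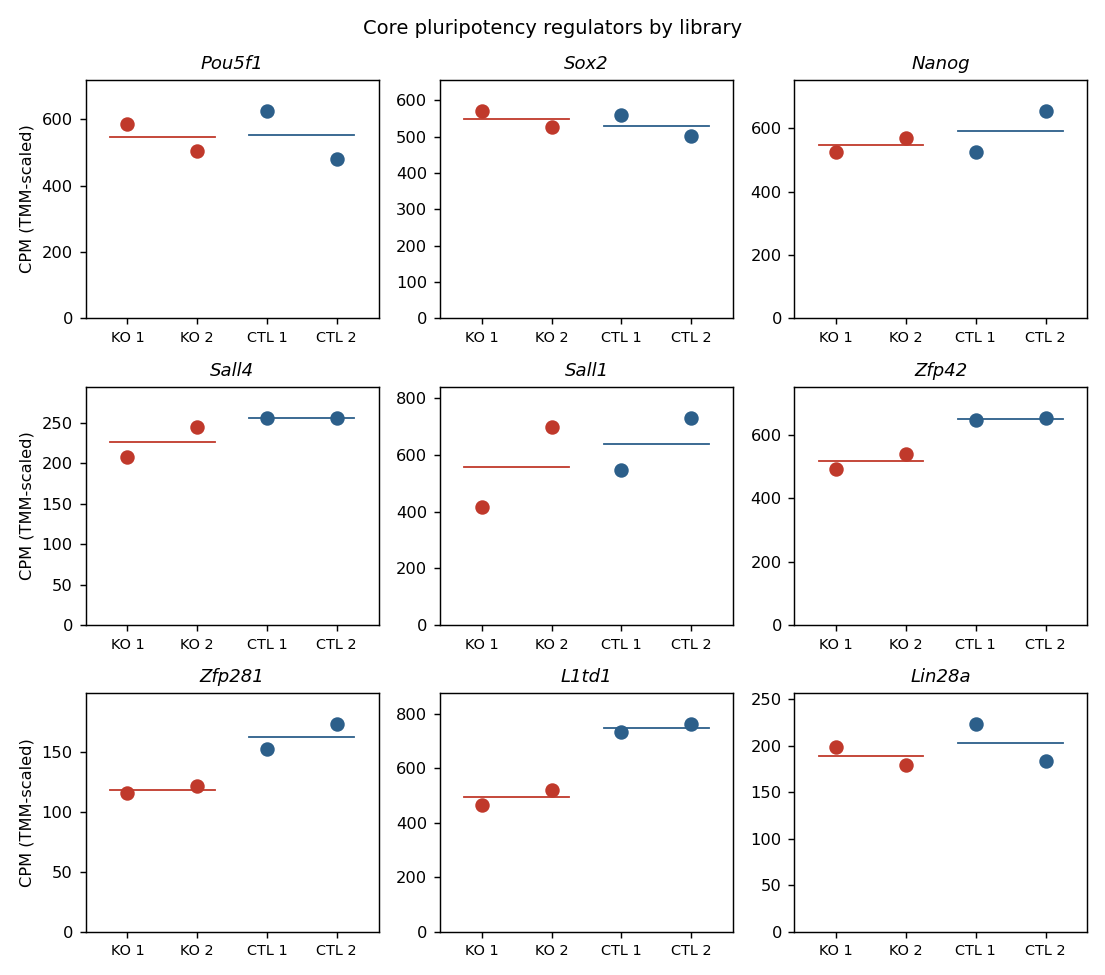
Level of each member in each library (vertical axis, TMM-scaled CPM from 0), Usp28 KO libraries in red on the left and control libraries in blue on the right, with horizontal lines at the group means. The groups are apart for L1td1, Zfp281, Zfp42 and, narrowly, Sall4, and overlap for the other 5 genes.

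Pou5f1 (ENSMUSG00000024406, chromosome 17, 35506018 to 35510772), the POU factor gene essential for a pluripotent inner cell mass, had 587 and 505 CPM in the libraries labelled Usp28 KO and 626 and 482 CPM in control. The control libraries were the highest and the lowest of the 4, and the Usp28 KO libraries lay between them. On the log2 scale the difference was -0.020 (95% interval -0.42 to 0.38, adjusted p = 0.984), which as a ratio is 0.986 with an interval of 0.748 to 1.30. The difference between the control replicates, 0.38 on the log2 scale, was larger than that between the groups. The direction depended on single libraries: leaving out control replicate 1 gave 0.18, and Usp28 KO replicate 2 gave 0.079, whereas control replicate 2 left out gave -0.21 and Usp28 KO replicate 1 gave -0.13. Correction for the GC content of transcripts, described further on, gave -0.17.

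Sox2 (ENSMUSG00000074637, chromosome 3, 34650405 to 34652461), which encodes the partner of OCT4 on composite sites, had 571 and 527 CPM in Usp28 KO and 559 and 501 CPM in control. The groups overlapped, with replicate 1 above replicate 2 in each. Its log2 fold change, 0.050 (95% interval -0.31 to 0.41, adjusted p = 0.949), was the single one above 0 among the members. As a ratio it was 1.04, with an interval of 0.806 to 1.33. It was below 0 without control replicate 2 (-0.035) or Usp28 KO replicate 1 (-0.0085).

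Nanog (ENSMUSG00000012396, chromosome 6, 122707489 to 122714633), the homeobox gene whose promoter holds the composite printed above, had 527 and 571 CPM in Usp28 KO and 526 and 656 CPM in control. Control replicate 2 stood above the other libraries, and the groups overlapped. The group difference was -0.11 on the log2 scale (95% interval -0.49 to 0.28, adjusted p = 0.879), a ratio of 0.929 with an interval of 0.713 to 1.21. It was 0.051 without control replicate 2 and -0.26 without control replicate 1. For Pou5f1, Sox2 and Nanog alike, the intervals hold both losses and gains, and a p above the threshold does not show that the levels were equal.

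The proportions of the core factors to each other, which do not depend on how libraries are scaled, also overlapped between the groups. The ratio of Nanog to Pou5f1 per kb was 0.899 and 1.13 in Usp28 KO and 0.843 and 1.36 in control. The ratio of Sox2 to Pou5f1 was 1.06 and 1.14 in Usp28 KO and 0.976 and 1.14 in control. In each group both ratios were higher in replicate 2.

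Sall4 (ENSMUSG00000027547, chromosome 2, 168748332 to 168767943), which is needed for the growth of embryonic stem cells, had 208 and 245 CPM in Usp28 KO and 257 and 256 CPM in control. The Usp28 KO libraries were below control, replicate 2 by a small margin. Its log2 fold change was -0.18 (95% interval -0.53 to 0.17, adjusted p = 0.737).

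Sall1 (ENSMUSG00000031665, chromosome 8, 89027235 to 89044162), its relative, varied more between replicates than any other member, with 415 and 700.0 CPM in Usp28 KO and 547 and 732 CPM in control. Replicate 1 was the lower library in each group, by 0.75 on the log2 scale in Usp28 KO and 0.42 in control, and the groups overlapped. Its log2 fold change was -0.20 (95% interval -0.73 to 0.34, adjusted p = 0.823). It was -0.63 without Usp28 KO replicate 2 and 0.13 without Usp28 KO replicate 1, and also changed sign without control replicate 2, at 0.018. The ratio of Sall1 to Sall4 per kb was 2.10 and 3.00 in Usp28 KO and 2.24 and 3.00 in control, so the replicates differed in it and the groups did not separate.

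Zfp42 (ENSMUSG00000051176, chromosome 8, 43295063 to 43306980), the naive marker with the octamer in its promoter, had 493 and 541 CPM in Usp28 KO and 645 and 654 CPM in control. Both Usp28 KO libraries were below both control libraries. Zfp42 differed by -0.33 on the log2 scale (95% interval -0.69 to 0.029, adjusted p = 0.491), a level 20.4% lower. Of the genes averaging at least 100 CPM, 8.07% had a log2 fold change as low or lower.

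Zfp281 (ENSMUSG00000041483, chromosome 1, 136624901 to 136630053) had 116 and 122 CPM in Usp28 KO and 152 and 173 CPM in control. The groups did not overlap, and the gap between them exceeded the spread within each. Its log2 fold change was -0.45 (95% interval -0.80 to -0.11, unadjusted p = 0.0132, edgeR adjusted p = 0.318; DESeq2 adjusted p = 0.300), a level 27.0% lower. The interval is for this gene alone and is not adjusted for the number of genes tested. Of the genes averaging at least 100 CPM, 3.14% were as low or lower.

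L1td1 (ENSMUSG00000087166, chromosome 4, 98726734 to 98738480), which encodes an RNA-binding protein descended from the LINE-1 retrotransposon, had 467 and 519 CPM in Usp28 KO and 733 and 761 CPM in control. Replicates were close in each group, at 493 ± 37.2 CPM in Usp28 KO and 747 ± 19.8 CPM in control (SD, n = 2 each), and they did not overlap. The log2 fold change was -0.60 (95% interval -0.96 to -0.24), a level 34.0% lower. L1td1 passed the DESeq2 test (adjusted p = 0.0450) and not edgeR's (unadjusted p = 0.00354, adjusted p = 0.194). By p it ranked 277 among the 15341 tested genes, and 0.869% of those averaging at least 100 CPM had a log2 fold change as low or lower. In bulk RNA, fewer cells with the transcript and less of it per cell cannot be told apart.

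Lin28a (ENSMUSG00000050966, chromosome 4, 134003330 to 134018841), the other RNA-binding member, had 199 and 179 CPM in Usp28 KO and 223 and 184 CPM in control. The groups overlapped, with replicate 1 the higher in each. Lin28a differed by -0.11 on the log2 scale (95% interval -0.46 to 0.25, adjusted p = 0.871), and by 0.038 without control replicate 1. In human embryonic stem cells the L1TD1 and LIN28A proteins are known to associate. The ratio of their transcripts per kb, L1td1 over Lin28a, was 2.95 and 3.64 in Usp28 KO and 4.14 and 5.20 in control. It was lower in both Usp28 KO libraries. The ratio restates the log2 fold changes of L1td1 (-0.60) and Lin28a (-0.11) and is not a separate result.

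**Figure D3:**
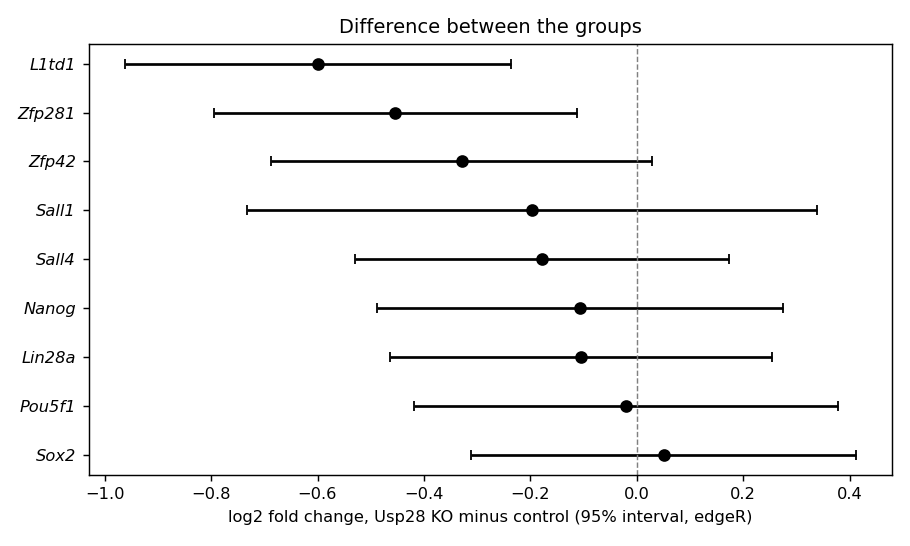
Log2 fold change of each member, Usp28 KO minus control (horizontal axis), with the 95% interval of the edgeR fit for each gene alone. The intervals of L1td1 and Zfp281 lie below 0 and those of the other 7 members hold 0.

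**Figure D4:**
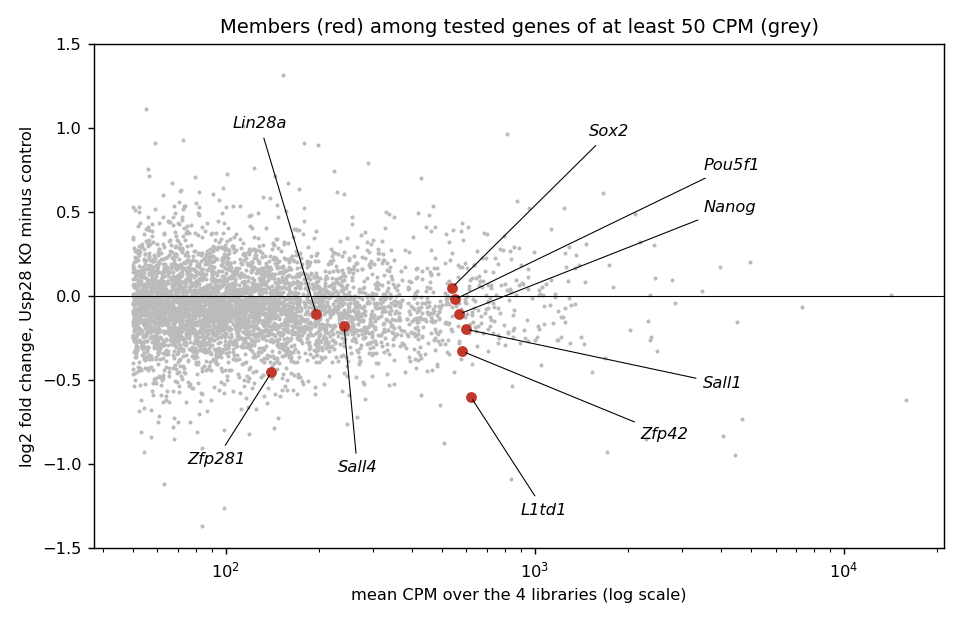
Log2 fold change, Usp28 KO minus control, against mean CPM (log scale) for the 4559 tested genes of at least 50 CPM, with the members in red. L1td1, at -0.60, sits at the lower edge of genes of like abundance, where the central 90% of genes of at least 100 CPM run from -0.38 to 0.27.

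Reads of the members could in principle be shared with other genes. A search of all GENCODE M21 transcripts for stretches of at least 300 bases at 85% identity or more found 3 such relatives. They were Gm5712 for Pou5f1 at 87.2% identity and Gm48515 for L1td1 at 86.6%, both with 0 counts in every library, and Sox1 for Sox2 at 85.5%, with 284 and 382 counts in Usp28 KO and 328 and 301 in control. Exons overlapping a member on the opposite strand belonged to Gm19553 at Pou5f1, Gm14261 at Sall4 and Gm13061 at Lin28a, which had at most 19 counts in a library. The shared stretches are 14.1% of the exon bases of Pou5f1, 9.50% of Sall4 and 5.86% of Lin28a. The strand setting of the counting is not given in the sources used here, so reads from these partners cannot be told apart from those of the 3 members. Whether reads of the members in these stretches were counted is not known either.

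Libraries differed in how their values depended on the GC content of transcripts. Across 10701 genes, which are not independent replicates, the rank correlation of a library's log2 CPM relative to the other libraries with GC content was 0.0032 and 0.451 in Usp28 KO replicates 1 and 2, and 0.0554 and -0.441 in control replicates 1 and 2. Pou5f1, with the highest GC content of the members at 57.6%, had a log2 fold change of -0.17 after correction for this trend, and Zfp281, with the lowest at 43.1%, had -0.35. L1td1, at 47.8% GC, had -0.57. Before correction, the log2 fold change between the groups had a rank correlation of 0.323 with GC content across these genes. Genes of low GC content thus leaned lower in Usp28 KO relative to those of high GC content. The median GC content of tested genes was 49.7%, above that of L1td1, Zfp281, Zfp42 and Nanog. With the correction and no replicate block, no member was called by edgeR (adjusted p = 0.329 for L1td1 and 0.424 for Zfp281). Calls with the block are given at the end. Values for the lists of other genes below are without the GC correction.

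**Figure D5:**
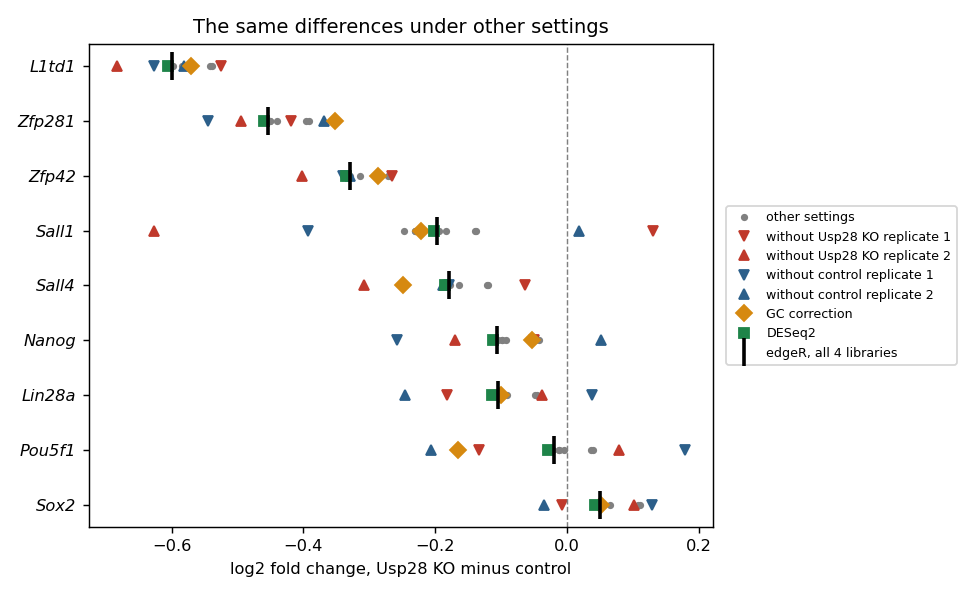
Log2 fold change of each member, Usp28 KO minus control (horizontal axis), by edgeR on all 4 libraries (black bars) and under the other settings, with fits that leave out 1 library as triangles. L1td1, Zfp281, Zfp42 and Sall4 stay below 0 in every fit drawn, and Sall1 runs from -0.63 to 0.13.

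The sequence relatives of the members did not pass the test: 0 of 11 tested genes of 13 listed were called in either direction, and 1 was lower at an unadjusted p under 0.05 (4.34% of all tested genes). Their median log2 fold change was -0.0070, against -0.0040 over all tested genes. Sall3, related to Sall1 and Sall4, had the lowest p, with 44.7 and 59.0 CPM in Usp28 KO and 80.0 and 65.0 CPM in control (log2 fold change -0.48 ± 0.19, adjusted p = 0.359). Yy1, the relative of Zfp42, and Zfp148, the relative of Zfp281, each had a log2 fold change of -0.29. Sox14 and Yy2 were at 0 in every library.

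Genes known as targets of OCT4 and SOX2 were not called either, with 0 of 12 past the adjusted test. At an unadjusted p under 0.05, 5 of the 12 were lower and 1 higher, where 4.34% of all tested genes were lower and 6.86% higher. The list was chosen with earlier results of these data known, so these shares were not tested against each other. Below 0 were 10 of the 12, and their median was -0.23, against -0.0040 over all tested genes and -0.070 over those averaging at least 100 CPM. Lefty1, a nodal antagonist gene, had 87.0 and 91.1 CPM in Usp28 KO and 146 and 120.0 CPM in control, at -0.58 ± 0.16 on the log2 scale (adjusted p = 0.200). The growth factor gene Gdf3 and the Akt coactivator gene Tcl1 stood at -0.46 and -0.53. Fgf4, a textbook target of the composite OCT-SOX site, went the other way, with 305 and 283 CPM in Usp28 KO and 207 and 230 CPM in control (log2 fold change 0.43, adjusted p = 0.337). Tdgf1, a nodal co-receptor gene and the most abundant of the list, was the other gene above 0, with 1295 and 1267 CPM in Usp28 KO and 839 and 1108 CPM in control (log2 fold change 0.40). The summed level of the list overlapped between the groups with Tdgf1, at 3465 and 3650 CPM in Usp28 KO and 3231 and 3858 CPM in control. Tdgf1 was left out of another sum after the values were seen. That sum was 2170 and 2382 CPM in Usp28 KO and 2392 and 2750 CPM in control. The groups are apart there by a narrow margin, and leaving out a gene higher in Usp28 KO favours such a gap.

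Of 8 naive-state factors that share enhancers with the core, 0 were called and 2 were lower at an unadjusted p under 0.05, against 4.34% of all tested genes. Their median was -0.28, beside the -0.0040 of all tested genes and the -0.070 of abundant ones. Below 0 were 6 of the 8, and 2 were above 0. Tfcp2l1 had the lowest p (log2 fold change -0.54 ± 0.17, adjusted p = 0.250). The nuclear receptor gene Nr5a2 had 99.7 and 103 CPM in Usp28 KO and 129 and 145 CPM in control, at -0.43 ± 0.16. Tbx3, at -0.45 ± 0.26, overlapped between the groups.

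The subunit genes of NuRD, the complex that SALL and NANOG proteins bring to chromatin, had a median of -0.024, with 0 of 15 called. The one at an unadjusted p under 0.05, a bound that 6.86% of all tested genes passed as higher, was Chd5, a remodeller gene known mainly from neurons, with 19.5 and 16.6 CPM in Usp28 KO and 9.37 and 9.77 CPM in control (log2 fold change 0.92 ± 0.22, adjusted p = 0.133). The deacetylase gene Hdac2 and Gatad2a stood at -0.25 and -0.18.

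On the side of LIN28A, 0 of 8 genes for let-7 processing and its partners were called and 0 had an unadjusted p under 0.05, with a median of -0.14. Dgcr8, the partner of the Drosha nuclease, had the lowest p, at -0.32 ± 0.16 (adjusted p = 0.496). Drosha and the exonuclease gene Dis3l2 stood at -0.21 and 0.18. Of 11 known let-7 targets, 0 were called and 2 were lower at an unadjusted p under 0.05, against 4.34% of all tested genes, with a median of -0.15. These were the chromatin protein gene Hmga2, with 14.4 and 16.2 CPM in Usp28 KO and 20.7 and 24.0 CPM in control (log2 fold change -0.55 ± 0.21), and the RNA-binding protein gene Igf2bp3, at -0.35 ± 0.16. Ccnd2 stood at -1.20, at under 1.1 CPM in every library. Of the 11 targets, 8 were below 0 and 3 above.

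Profiles most like those of 4 members were sought over the 4 libraries among 4468 named genes of at least 50 CPM, by the Euclidean distance between centred log2 CPM. Nearest to Pou5f1 were Foxo4 and Armcx1 (distances 0.0311 and 0.0325), to Sox2 Nr6a1 and Elp3 (0.0200 and 0.0259), to Nanog Triml1 and Nipbl (0.0084 and 0.0126), and to L1td1 Smarcad1 and Manba (0.0732 and 0.0826). Other members were not always near: from Pou5f1, Lin28a ranked 144, Sox2 373, Nanog 3298 and Sall1 4326. Zfp281 was the 40th nearest gene to L1td1, at 0.185, and Zfp42 the 121st, at 0.272. With only 4 libraries many genes lie this close, so these are descriptions of the libraries.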

How the data were processed

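The table deposited by the authors gives unnormalised counts of reads for each gene in the 4 libraries, with exon positions and lengths laid out as featureCounts does, per the file headers. The submitters' processing notes name mm10, HISAT2, featureCounts and DESeq2 without versions. Not given in the sources used here: annotation release, strand setting and treatment of multi-mapped reads. Depth per library is the total count given above; all columns of values belong to these libraries.

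GENCODE M21 (mm10) supplied symbols and the GC content of transcripts: 55141 identifiers matched without version suffix and 260 did not. In R 4.3.3, edgeR 4.0.16 kept genes by filterByExpr (minimum count 10, minimum total 15), applied TMM scaling and compared Usp28 KO with control by a robust quasi-likelihood fit, with Benjamini-Hochberg adjustment over all 15341 tested genes and a threshold of 0.05. CPM are counts per 1000000 of the scaled library total. Fold changes on the log2 scale, Usp28 KO minus control, carry the SE or 95% interval of that fit. DESeq2 1.42.0 and limma 3.58.1 (voom) were alternatives, beside other scalings and filters, a GC correction (natural spline, 5 degrees of freedom), a replicate block and fits without each library. The steps were also run on simulated counts, drawn independently for each library. These held neither the GC trends nor the correlation of same-numbered libraries reported here. That run does not show how the tests behave under them. Relatives in sequence were sought with BLAST+ 2.17.0.

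The genes named are the 9 members, Usp28, up to 3 genes per list by smallest p, and the 2 nearest profiles of 4 members; Fgf4, Tdgf1, Tfap2c, Tead4 and genes at 0 were added after their values were seen. Members and lists were chosen with earlier results of these data known.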

Additional observations from a re-analysis of the deposited data

How the results depend on the processing

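No member was called under limma-voom, any other scaling, a filter of at least 50 counts in 2 libraries, no filter, the GC correction or any fit without a library. A fit without a library leaves 1 library in a group, assumed to vary like the 2 of the other group, so it adds no evidence that members are unchanged. The median log2 fold change of the 9 members was -0.31 to -0.13 without 1 library, lowest without Usp28 KO replicate 2. Over all genes, in place of 0 higher and 0 lower, DESeq2 called 82 higher and 50 lower, upper-quartile scaling 18 and 3, library totals 24 and 5, and no filter 204 and 118. Without 1 library, 49 to 146 were higher and 31 to 200 lower. Pou5f1 stood at 0.036 with upper-quartile scaling and 0.039 with library totals, which moved the median of all tested genes from -0.0040 to 0.053 and 0.057. Without 1 library Pou5f1 ran from -0.21 to 0.18, Sox2 from -0.035 to 0.13, Nanog from -0.26 to 0.051, Sall1 from -0.63 to 0.13 and Lin28a from -0.25 to 0.038. L1td1 ran from -0.68 to -0.52, Zfp281 from -0.55 to -0.37, Zfp42 from -0.40 to -0.27 and Sall4 from -0.31 to -0.065.

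A replicate block gave 965 higher and 716 lower genes by edgeR, with L1td1, Zfp281 and Zfp42 (adjusted p = 7.89e-06, 0.00858 and 0.0350) among the lower. The block with the GC correction gave 1515 higher and 1537 lower, with L1td1, Zfp281, Zfp42, Sall4 and Sall1 among the lower. Deviations of same-numbered libraries correlated at 0.518 across genes, but the labels do not say that a number marks a shared batch and there are only 2 pairs.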
